A study of Ovis aries with 32 samples.

Results

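Endoplasmic reticulum (ER) chaperones and stress-response genes were followed in 4 tissues of Tan sheep, a fat-tailed breed, fed with or without succinic acid. The set held 10 genes chosen by name: HSPA5, HSP90B1, CALR, CANX, PDIA3, PDIA4, PDIA6, DNAJB9, XBP1 and ATF4. A row with that gene name was found for 9 of them, each on 1 row, among 30722 rows of which 17372 carried a name. XBP1 was not analysed here. The sheep were males aged 3 months, individually penned, in a trial of 24 animals with 12 per diet. The control diet (CON) was a basal pellet. The other diet (SA) was the same pellet with succinic acid, an intermediate of the citric acid cycle, added at 1% of dry matter. Feeding lasted 60 days and followed 10 days of adaptation, and both groups were of the same breed, sex and age. RNA was sequenced from liver, from tail fat and from tissue labelled hypothalamus or pituitary, giving 8 groups by tissue and diet with 4 libraries in each. Per the labels' protocols these came from 4 sheep per diet, and the labels do not tie libraries of the same number in different tissues to 1 sheep. The comparisons asked how each gene's level differed with diet within a tissue, and how it differed between tissues.

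The ER is where secreted and membrane proteins are folded. HSPA5 (BiP) and HSP90B1 (GRP94) hold unfolded chains, calnexin and calreticulin retain glycoproteins by their sugars, and protein disulfide isomerases form and rearrange disulfide bonds. When unfolded protein accumulates, the sensors ATF6, IRE1 and PERK start the unfolded protein response. ATF6 and the IRE1 product XBP1 raise the transcription of chaperone genes, while PERK and other kinases slow translation and favour the production of ATF4, a transcription factor for amino acid supply and stress genes. The liver secretes most plasma proteins and is rich in ER.

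Levels are given as TPM, a unit inferred here from the values, which gives each gene's length-adjusted share of all transcripts and in which a larger share for some transcripts lowers all others. Mitochondrially encoded RNA, counted here as the 13 mitochondrial protein genes without ribosomal RNA, took 20.2% to 27.8% of the TPM in the 4 CON liver libraries. It took 51.7% to 70.9% in the 4 SA liver libraries, so this share differed with diet in liver and the ranges did not overlap. It ranged from 22.5% to 70.6% in tail fat, from 36.4% to 67.5% in tissue labelled pituitary and from 46% to 55.3% in tissue labelled hypothalamus. All 9 genes passed the filter on low values in all 4 tissues. The tissue labels were checked against marker genes: in the liver 10 of 10 hepatocyte markers were found and summed to 7899 TPM or more in each library, and in tail fat the adipocyte markers summed to 11910 to 77690 TPM. In the libraries labelled pituitary, 7 of 10 anterior pituitary markers were found and summed to 2.88 to 5.93 TPM, the hormone genes CGA and FSHB were at 0 in every library, and 8 neuronal markers summed to 1236 to 4018 TPM. The anterior pituitary sum was no lower in tail fat, at 2.84 to 9.15 TPM, and was 1.03 to 4.91 TPM in the libraries labelled hypothalamus. In the CON libraries labelled hypothalamus, 9 of 10 hypothalamic neuron markers were found and summed to 35.5 to 54.7 TPM. The same sum was 10.0 to 17.0 TPM in the CON libraries labelled pituitary and 0.22 to 4.22 TPM in CON liver. In SA libraries the hypothalamic sum was 41.7 to 55.4 TPM under the hypothalamus label and 11.6 to 40.0 TPM under the pituitary label. Of these markers AVP, CRH, GHRH and PMCH stayed under 1 TPM in the CON libraries labelled hypothalamus, and only GHRH and PMCH in the SA libraries. These tissues are therefore named by their labels. Fewer cells of a type and less RNA per cell cannot be told apart in RNA from whole tissue.

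In sheep on the CON diet, most of the folding machinery was at its highest mean level in liver, whereas ATF4 was at its highest in tail fat. Liver held the highest mean of 7 of the 9 genes, the exceptions being CANX, highest in tissue labelled pituitary, and ATF4. CALR, a calcium-binding lectin chaperone of the ER lumen, had the highest mean TPM of the 9 in CON liver, at 656 ± 209 (SD, n = 4). HSPA5 stood at 404 ± 209, HSP90B1 at 401 ± 107 and PDIA3 at 399 ± 49.6 TPM there. DNAJB9, an ER co-chaperone that binds HSPA5, had the lowest mean in CON liver, at 164 ± 70.4 TPM.

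**Figure D1:**
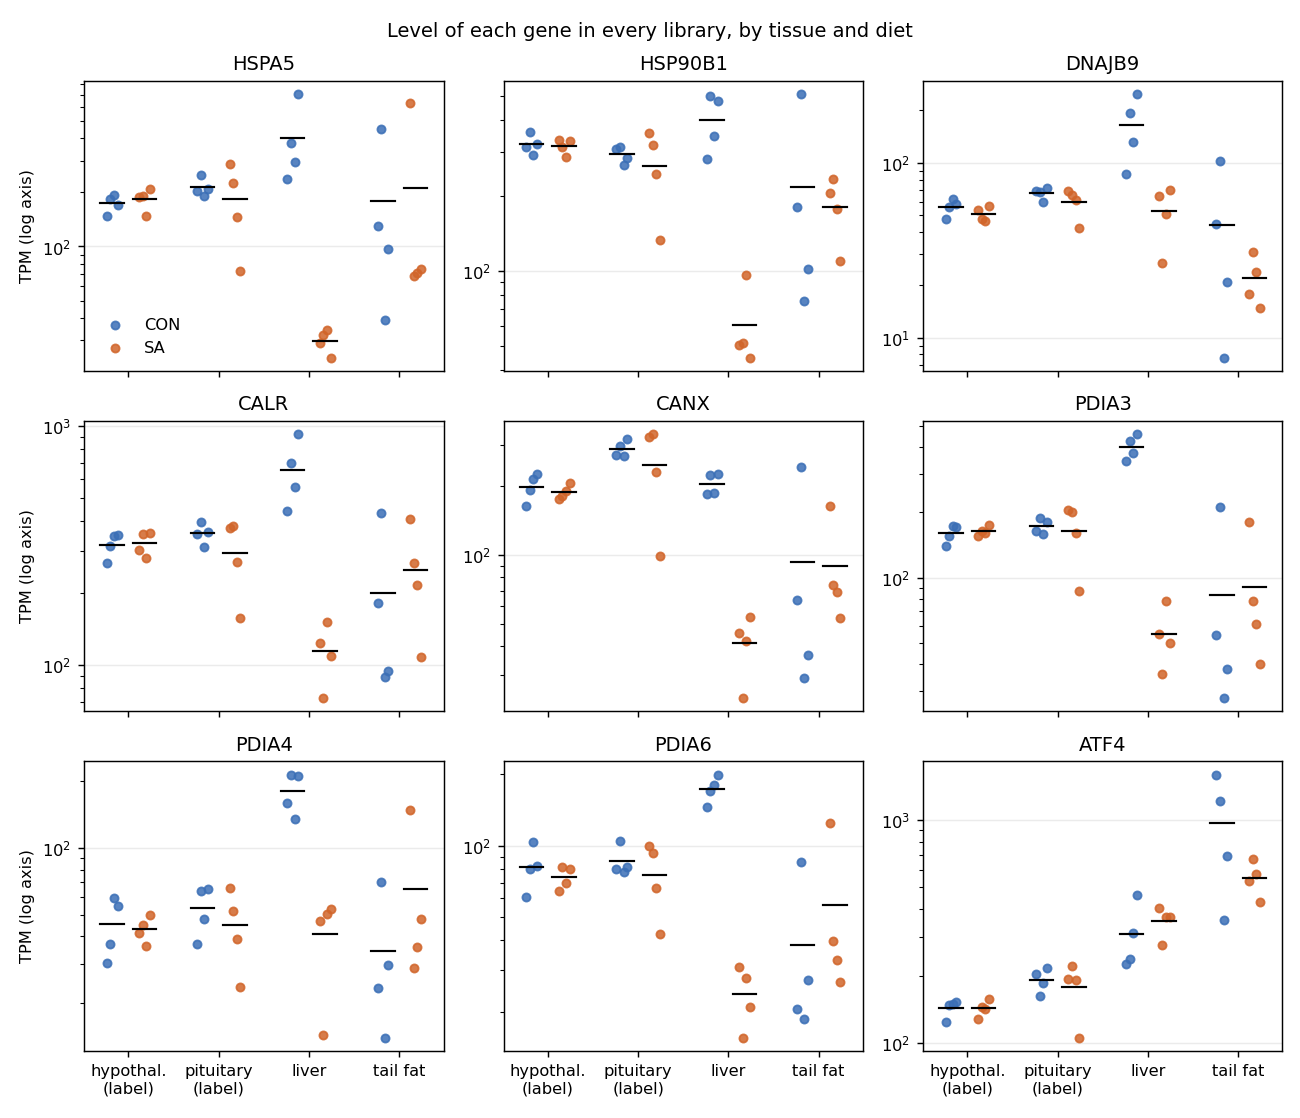
Each panel plots 1 gene, with TPM on a log axis against the 4 tissues; blue points are the 4 CON libraries, orange points the 4 SA libraries, and black bars the means. In liver all SA points lie below all CON points for 8 of the 9 genes and not for ATF4, and the tail fat points spread widely.

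No difference between tissue labelled pituitary and tissue labelled hypothalamus was detected in CON sheep for any of the 9 genes (limma, adjusted p under 0.05), where 13.1% of 15929 genes differed. The nearest was CANX, at 290.1 ± 23.5 against 199 ± 27.2 TPM, a log2 difference of 0.55 (adjusted p = 0.543). Against tissue labelled hypothalamus, 6 of 9 were higher in liver and none lower, against a background of 16.7% of genes higher in liver and 68.2% called in either direction. Those 6 were PDIA3, PDIA4, PDIA6, CALR, DNAJB9 and ATF4. The count fell to 3 when mitochondrial and ribosomal RNA were removed, and to 3 without CON liver library 4, which had the highest level of 7 of the 9 genes in liver.

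The protein disulfide isomerases set liver apart most clearly. PDIA3, which works with calnexin and calreticulin on glycoproteins, PDIA4 and PDIA6 were the 3 of 9 genes higher in liver than in tissue labelled pituitary (background 14.8% higher in liver and 73.1% in either direction). PDIA4 differed most, at 180.4 ± 39.5 against 53.5 ± 13.7 TPM, a log2 difference of 1.74 (adjusted p = 0.000625). The count was 7 without tail fat CON library 2, since the spread was estimated over all 16 CON libraries. With mitochondrial and ribosomal RNA removed, 3 of the 9 were higher and 1 lower in liver, where 2141 of 17000 genes were higher and 11509 lower. Quantile normalization gave 4 higher and 1 lower, where 4980 of 15929 genes were higher and 5844 lower.

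Against tail fat, 8 of 9 genes were higher in liver and ATF4 was lower (background 23.3% higher in liver and 44.1% in either direction). ATF4 stood at 1595, 1217, 357 and 693 TPM in the 4 CON tail fat libraries and at 228, 239, 311 and 461 TPM in the 4 CON liver libraries. The ranges overlapped only through tail fat library 3, and the log2 difference, liver minus tail fat, was -1.48 (adjusted p = 0.00286). ATF4 was also lower in tissue labelled hypothalamus than in tail fat, by a log2 difference of -2.52 (adjusted p = 9.05e-06). Counting ATF4 as the lower one, 6 of 9 genes differed between hypothalamus label and tail fat (background 67.4%) and 5 of 9 between pituitary label and tail fat (background 71.4%). The last count was 9 without tail fat CON library 2.

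Few neighbours in the order of tissues differed beyond their spread. For HSPA5 the order was liver, pituitary label, hypothalamus label, tail fat on the log2 scale, and no neighbouring pair differed (adjusted p from 0.167 to 0.818). HSP90B1 and DNAJB9 likewise had no neighbouring pair past the threshold. PDIA3, PDIA4 and PDIA6 differed at the first step, liver above pituitary label, with adjusted p of 0.0159, 0.000625 and 0.0189. PDIA3, PDIA6 and CANX differed between tissue labelled hypothalamus and tail fat, the last pair in their order, with adjusted p of 0.00675, 0.00333 and 0.0039. CALR also differed there (adjusted p = 0.033). For ATF4 only the first step, tail fat above liver, passed.

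In liver the SA diet group had lower levels of 8 of the 9 genes, and ATF4 was the exception. HSPA5 was lowest relative to CON, with a mean 13.5-fold lower, and DNAJB9 changed least of the 8, at 3.09-fold lower. The background was large: 59.1% of the 11582 genes tested in liver were lower in SA, 5.21% were higher, and over all genes the median log2 change was -0.83. The median of the 9 genes was -2.51. All 4 SA values lay below all 4 CON values for 8 of 9 genes, as they did for 54.2% of genes tested.

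**Figure D2:**
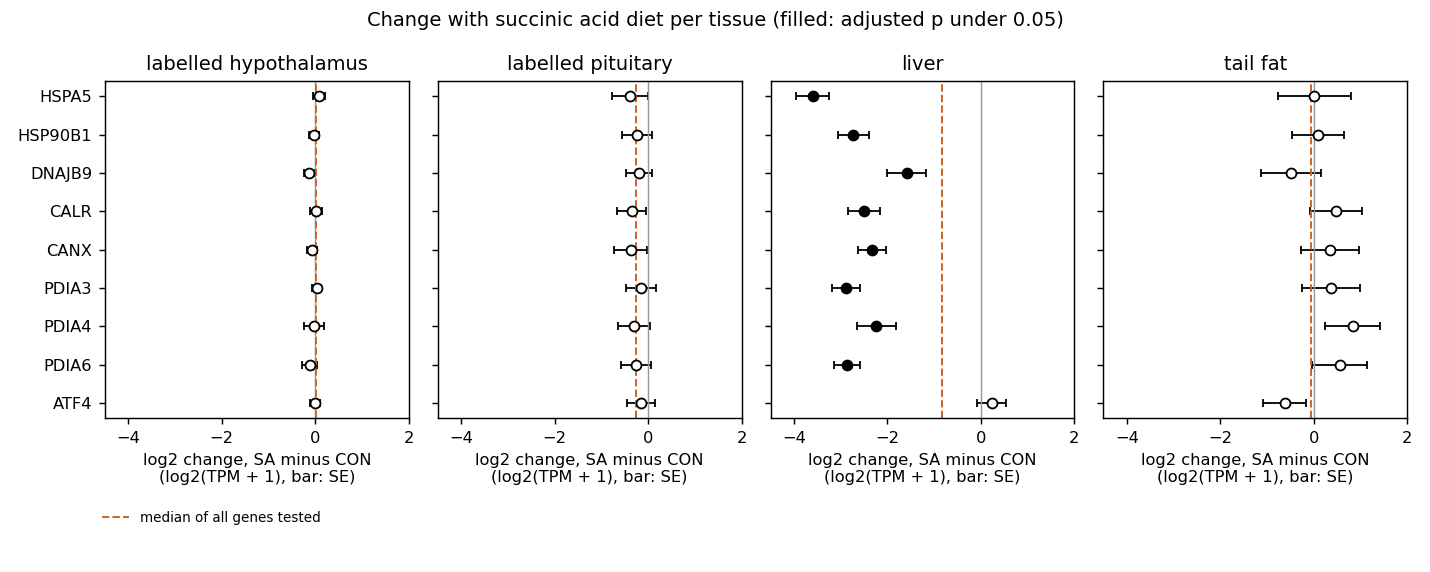
Log2 change of each gene, SA minus CON, of log2(TPM + 1) in each tissue, with bars of 1 SE; filled points passed an adjusted p of 0.05 and the dashed line is the median change of all genes tested. In liver 8 genes lie left of the dashed line at -0.83 and ATF4 lies right of it; no point is filled in the other 3 tissues.

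HSPA5 (ENSOARG00020007714), the ER chaperone of the HSP70 family and the partner that keeps the stress sensors inactive, was at 236, 378, 297 and 705 TPM in the CON livers and at 28.9, 32.3, 34.4 and 24.0 TPM in the SA livers. The 4 SA livers lay close together and far below the lowest CON liver, while CON library 4 stood above the other CON livers. The log2 change was -3.60 (SE 0.35, adjusted p = 6.19e-05) by limma, and only 0.302% of genes tested changed as far down or further. Without CON library 4 it was -3.29.

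HSP90B1, the HSP90-family chaperone of the ER, was at 279, 501, 346 and 479.7 TPM in CON and 50.5, 51.5, 96.4 and 44.8 TPM in SA livers. SA library 3 was the highest of its group and still below every CON liver. The log2 change was -2.73 (SE 0.33, adjusted p = 0.000135). DNAJB9 was at 86.3, 193, 131 and 247 TPM in CON and 65.0, 26.8, 50.8 and 70.1 TPM in SA livers. Its groups came closest to each other among the 8 genes, CON library 1 lying next above SA library 4. The log2 change was -1.59 (SE 0.41, adjusted p = 0.00733).

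Both lectin chaperones fell. CALR was at 441, 703, 557 and 925 TPM in CON and 123, 72.6, 151 and 109 TPM in SA livers, a log2 change of -2.51 (SE 0.34, adjusted p = 0.000221). CANX, its membrane-bound relative, was at 183, 222, 187 and 226 TPM in CON and 45.8, 23.9, 42.3 and 54.0 TPM in SA livers, a log2 change of -2.33 (SE 0.29, adjusted p = 0.000159). The CON values of CANX spread little, and SA library 2 was the lowest of the 8 livers for both genes.

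The 3 disulfide isomerases also fell. PDIA3 was at 345, 423, 374 and 456 TPM in CON and 55.2, 35.9, 77.7 and 50.3 TPM in SA livers, a log2 change of -2.89 (SE 0.29, adjusted p = 6.57e-05). PDIA6, an isomerase that associates with HSPA5, was at 146, 171, 181 and 199.7 TPM in CON and 30.7, 15.4, 27.7 and 20.9 TPM in SA livers, a log2 change of -2.87 (SE 0.27, adjusted p = 5.63e-05). For both, the CON and SA groups were widely separated. PDIA4 was at 159.9, 214, 135 and 212 TPM in CON and 46.8, 14.3, 50.2 and 53.1 TPM in SA livers, a log2 change of -2.24 (SE 0.42, adjusted p = 0.00132). SA library 2 stood apart below the other SA livers for PDIA4, and without it the change was -1.80.

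ATF4, the transcription factor of the integrated stress response, behaved differently. It was at 228, 239, 311 and 461 TPM in CON and 404, 275, 367 and 369 TPM in SA livers. The SA values lay within the CON range, whose top was again CON library 4. The log2 change was 0.23 (SE 0.31, adjusted p = 0.525). That change lay 1.07 above the median of all genes, and 88.1% of genes tested had a change at or below it. In SA livers ATF4 had the highest mean of the 9 genes, at 354 ± 55.3 TPM, where in CON livers the means of CALR, HSPA5, HSP90B1 and PDIA3 were higher.

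The calls for DNAJB9 and ATF4 depended on how the libraries were scaled. With mitochondrial and ribosomal RNA removed and the rest rescaled, 7 of 9 genes were lower and ATF4 was higher, against 15.1% of genes lower and 15.2% higher. HSPA5 then changed by -2.59 (adjusted p = 0.00133), PDIA6 by -1.86 (adjusted p = 0.000519) and CALR by -1.48 (adjusted p = 0.00413). ATF4 changed by 1.27 (adjusted p = 0.0056), and DNAJB9, at -0.57 (adjusted p = 0.207), no longer passed. Quantile normalization gave the same split, 7 lower and 1 higher, against 23.7% of genes lower and 15.1% higher. These scalings moved the median change of all genes in liver from -0.83 to -0.032 and -0.15, and the 7 genes stayed below it, with HSPA5 at -2.56 and -2.44 relative to it.

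Several other measures differed between the 2 groups of livers. The share of mitochondrially encoded RNA was higher in all SA livers, as given above. SELENOP was at 4282 to 5758 TPM in CON and 241 to 773 TPM in SA livers, while CCDC152 was listed at 0 in all 4 CON livers and at 168 to 842 TPM in the SA livers. Between 11504 and 12057 genes reached 1 TPM in CON livers and between 10216 and 10611 in SA livers. The hepatocyte marker sum was 96900 to 109900 TPM in CON and 7899 to 30110 TPM in SA livers, with none of the 10 markers under 1 TPM in all libraries of a group. The endothelial sum was 90.1 to 122 TPM in CON and 12 to 20.5 TPM in SA livers, and the fibroblast sum 101 to 207 and 17 to 32.5 TPM. The part of these differences in the chaperone changes was not tested, and diet and these differences cannot be told apart in liver. With the RNA other than mitochondrial and ribosomal RNA scaled to 1000000, the 9 genes together summed to 2717 to 5076 in CON livers and 1798 to 2563 in SA livers.

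Ratios between 2 genes in the same library cancel the common scaling of its TPM. They can still differ with the mix of cells and the state of the RNA, whose part was not tested. ATF4 divided by HSPA5 was 0.964, 0.633, 1.05 and 0.654 in the CON livers and 14, 8.5, 10.7 and 15.4 in the SA livers. The groups were far apart, by 14.7-fold on geometric means, with p = 0.0286 in a two-sided exact permutation test, the smallest that 4 against 4 libraries allow, and 0.229 after adjustment over the 24 ratios tested. DNAJB9 over HSPA5 was 0.351 to 0.511 in CON and 0.83 to 2.92 in SA livers, 4.08-fold higher with the same exact p and adjusted p. HSP90B1 over HSPA5 was 0.681 to 1.33 in CON and 1.59 to 2.8 in SA livers, 1.85-fold higher, again with the same p-values. CALR over CANX differed by 0.894-fold (exact p = 0.514, adjusted 0.806), a difference within the spread. High values of ATF4 over HSPA5 were not limited to SA livers. In tail fat the ratio was 2.70 in CON library 2 and 0.839 in SA library 1, where CCDC152 was at 0.12 and 0.07 TPM. The other 6 tail fat libraries, from both diets, had ratios of 5.71 to 12.2, a range overlapping that of the SA livers. What these libraries share was not tested. None of the 24 ratios passed the adjusted threshold. Ratios at the smallest possible exact p still had an adjusted p of 0.229, so this adjustment could not have passed a few fully separated ratios.

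**Figure D3:**
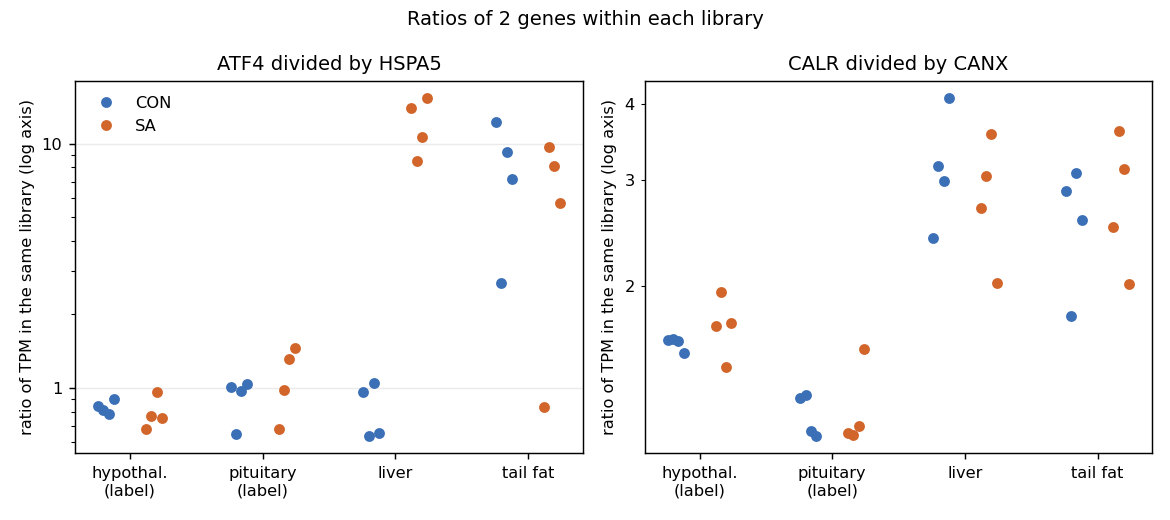
Ratio of ATF4 to HSPA5 (left) and of CALR to CANX (right) in each library, on log axes, with CON in blue and SA in orange. The 4 SA livers lie between 8.5 and 15.4 for ATF4 to HSPA5, above the CON livers at 0.633 to 1.05, while the CALR to CANX points of the 2 diets overlap in every tissue.

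The wider ER machinery was described by 5 lists, whose counts stand beside the shares over all genes in liver. Of 33 other chaperones, co-chaperones and folding enzymes tested in liver, 28 were lower and none higher, beside 59.1% lower and 5.21% higher over all genes tested, with a median change of -1.61 beside -0.83 for all genes. UGGT1, which marks misfolded glycoproteins for another round on calnexin, was at 5.485 ± 1.126 TPM in CON and 0.253 ± 0.126 TPM in SA livers. Its change of -2.36 is understated, since 1 TPM was added before taking log2. ERP44, which retrieves client proteins from the early Golgi, changed by -2.95, SDF2 by -2.06, TMX4, a membrane-bound thioredoxin-like protein, by -1.85 and FKBP7, a prolyl isomerase, by -1.61. The 5 that did not pass were PPIB, FKBP2, FKBP11, TMX2 and CNPY3, named after their values were seen. FKBP2 stood at 80.8 ± 14.3 TPM in CON and 79.6 ± 32 TPM in SA livers.

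ER-associated degradation, which removes misfolded proteins, showed 20 of 23 genes lower and none higher (59.1% of all genes lower), with a median change of -1.62. OS9, a lectin that hands glycoproteins to the degradation complex, changed by -2.79. The ATPase VCP, which pulls proteins out of the membrane, changed by -2.37, its membrane recruiter FAF2 by -1.97 and the ligase adaptor SEL1L by -2.24. UFD1, a VCP cofactor, was at 38.5 ± 3.56 TPM in CON and 53.3 ± 15 TPM in SA livers and did not pass.

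Of the genes for moving new chains into the ER, 16 of 21 were lower, beside 59.1% of all genes, with a median of -1.80. SSR3, a subunit of the complex beside the translocation channel, fell from 186 ± 48 to 9.43 ± 1.87 TPM, a change of -4.15. The 2 subunits of the signal recognition particle receptor, SRPRA and SRPRB, changed by -2.93 and -3.13, and the particle's own SRP72 and SRP54 by -1.68 and -1.80. The change of SRPRB is understated on this scale, at 6.7 to 14.5 TPM in CON and 0 to 1.83 TPM in SA livers. SEC62, which assists translocation and takes part in ER clearance after stress, was the only one higher, at 1.27 (adjusted p = 0.0138, 76.4 to 143 TPM in CON and 150.2 to 360.3 TPM in SA livers). SEC61B, a subunit of the channel itself, was at 203 ± 35 TPM in CON and 207 ± 44.6 TPM in SA livers.

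All 13 tested sensors and regulators of the unfolded protein response were lower, beside 59.1% of all genes, with a median of -1.53. RTCB, the ligase that joins the cut XBP1 message, changed by -2.78. MBTPS1, the protease that releases ATF6, changed by -2.19, CREB3L2 by -2.38, and ATF6 and ATF6B by -1.96 and -1.53. Among 26 tested targets of ATF4 and the integrated stress response, 16 were lower, 1 higher and 9 did not pass, with a median of -1.19. That share of lower genes is near the 59.1% over all genes. The 5 with the smallest p were the aminoacyl-tRNA synthetases AARS1, EPRS1, NARS1, WARS1 and SARS1, with changes between -2.78 and -1.80. DDIT3 (CHOP), a stress transcription factor, was the 1 higher gene, from 2.87 ± 0.573 to 4.43 ± 0.503 TPM, a change of 0.50 (adjusted p = 0.0273).

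Rescaling moved these counts more than it moved those of the 9 genes. With mitochondrial and ribosomal RNA removed, 16 of 33 folding genes were lower and 2 higher, 12 of 23 degradation genes lower and 2 higher, 12 of 21 translocation genes lower and 4 higher, and 6 of 13 sensors and regulators lower. Over all genes 15.1% were lower and 15.2% higher on that scale. Of the ATF4 targets 5 of 28 were lower and 5 higher, shares near those over all genes. Those 5 higher were DDIT3, PSPH, CEBPB, ATF5 and PPP1R15B, named after their values were seen. DDIT3 changed by 1.45 (adjusted p = 0.00222) and SEC62 by 2.31 (adjusted p = 0.000572) on that scale.

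**Figure D4:**
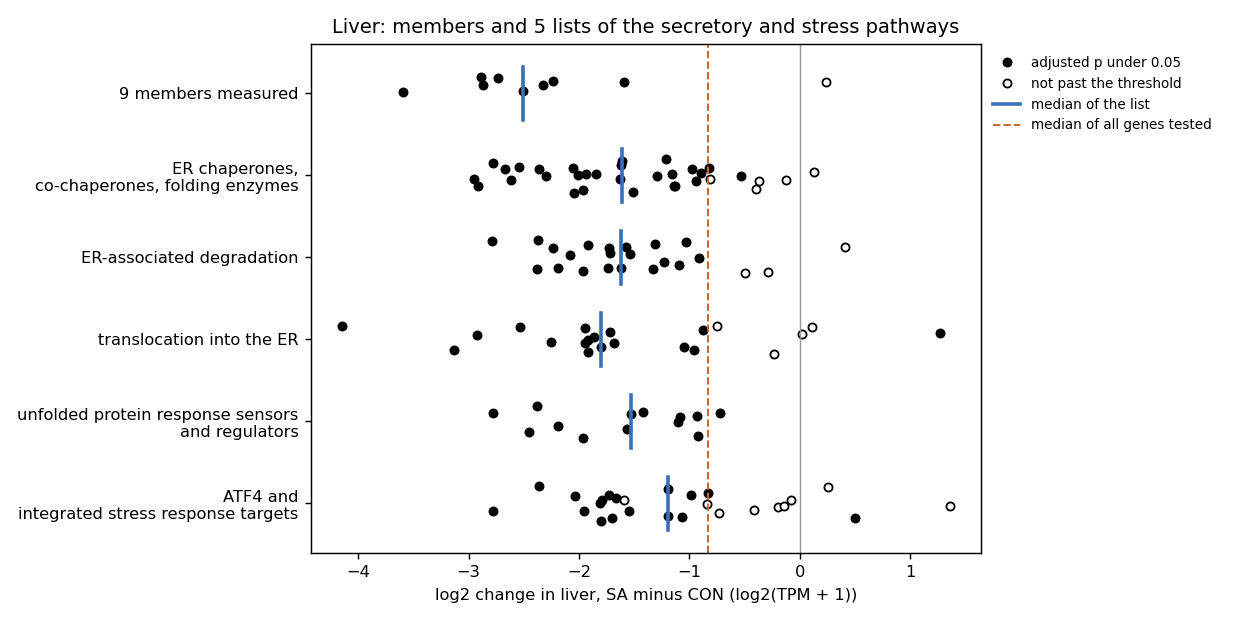
Log2 change in liver, SA minus CON, of the 9 genes and of every tested gene of 5 lists (1 point a gene, filled where the adjusted p was under 0.05); blue bars are list medians and the dashed line is the median of all genes tested. The 9 genes have a median of -2.51 and the lists medians between -1.80 and -1.19, left of the dashed line at -0.83, with SEC62 and DDIT3 as the filled points above 0.

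In tissue labelled hypothalamus no difference with diet was detected for any of the 9 genes. The background was 0% there: limma called none of 14126 genes, 493 genes had an unadjusted p under 0.05, and none of the 9 was among them. HSPA5 was at 148, 184, 193 and 170.3 TPM in CON and 188, 190.4, 148 and 209 TPM in SA libraries. The groups overlapped almost entirely, and the log2 change was 0.076 (SE 0.13, adjusted p = 0.969). ATF4 was at 125, 149, 151 and 154 TPM in CON and 128, 146, 142 and 158 TPM in SA libraries, with a log2 change of -0.009 (SE 0.10, adjusted p = 0.996). DNAJB9 had the largest change of the 9 there, -0.12 (SE 0.11, adjusted p = 0.947). Over the 9 genes the changes ran from -0.12 to 0.076 and the adjusted p from 0.947 to 0.996. CON library 1 was the lowest of the 8 libraries for 6 of the 9 genes. A joint fit of all 32 libraries called 3 genes in this tissue, none of the 9. The mix of cells was not the same in all these libraries. The choroid plexus and ependyma marker sum was 13.2 to 224.5 TPM in CON and 179.5 to 2409 TPM in SA libraries. The oligodendrocyte sum was 4946 to 23290 and 2118 to 6838 TPM, while the neuronal sum was alike, at 1682 to 2196 and 1856 to 2166 TPM. The part of these markers in the values was not tested.

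In tissue labelled pituitary none of the 9 genes passed either, and library SA 4 decided most of the apparent change. The background was 0% of 14472 genes, with 218 genes and none of the 9 at an unadjusted p under 0.05. Array weights called 165 genes there and the joint fit 4, none of them among the 9. HSPA5 was at 203, 251, 191 and 209 TPM in CON and 287, 226, 146 and 72.6 TPM in SA libraries, a log2 change of -0.39 (SE 0.38, adjusted p = 0.747). SA library 1 was the highest of the 8 and SA library 4 the lowest. CANX was at 271, 299.6, 270.5 and 319 TPM in CON and 326, 335, 229 and 99.3 TPM in SA libraries, a log2 change of -0.37 (SE 0.36, adjusted p = 0.747). Over the 9 genes the changes ran from -0.39 to -0.15 and the adjusted p from 0.747 to 0.816. SA library 4 was lowest of the 8 for 9 of 9 genes. It had the highest mitochondrial share of the tissue, at 67.5%, and GAPDH at 496 TPM against 1332 to 2291 TPM in the other SA libraries. Its choroid plexus and ependyma marker sum was 3107 TPM against 37.8 to 530 TPM in the other 7, its hepatocyte sum, which shares TTR with that list, 3579 against 525 to 949 TPM, and its neuronal sum 1236 against 2490 to 4018 TPM. Without it the changes of the 9 genes ranged from -0.073 for CALR to 0.12 for PDIA3, all with an adjusted p of 1. The part of the mitochondrial share and of these markers in these values was not tested.

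Tail fat varied widely between animals of 1 diet, and none of the 9 genes passed there. Across the 9 genes the SD was 56.9% to 108% of the mean in CON tail fat and 11.1% to 51.7% in CON liver. The background was 0.697% of 11185 genes, with 1596 genes and none of the 9 at an unadjusted p under 0.05. HSPA5 was at 130.5, 451, 38.7 and 96.6 TPM in CON and 633, 68.5, 70.7 and 74.8 TPM in SA libraries. CON library 2 and SA library 1 stood far above the other 6, which reached at most 130.5 TPM. The log2 change was 0.014 (SE 0.79, adjusted p = 0.996). It was -0.77 without SA library 1 and 0.64 without CON library 2.

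The same 2 libraries were high for most of the folding genes. PDIA6 was at 20.5, 85.8, 18.5 and 27.2 TPM in CON and 125, 39.9, 33.1 and 26.7 TPM in SA libraries, and PDIA4 at 23.4, 70.5, 13.8 and 29.5 and 148, 28.8, 35.7 and 47.6 TPM. For both, SA library 1 was the highest of the 8 and CON library 2 the next. HSP90B1 was at 181, 509, 75.5 and 102 TPM in CON and 204, 232, 177 and 109 TPM in SA libraries, where CON library 2 alone stood apart. DNAJB9 was at 44.8, 103, 7.66 and 20.8 TPM in CON and 17.7, 31.0, 23.8 and 14.7 TPM in SA libraries. SA library 1 was thus the highest of the tissue for HSPA5 and the second lowest of its diet for DNAJB9. CON library 3 was the lowest of the 8 for 9 of 9 genes. CALR ranged from 89.3 to 433 TPM in CON and 108 to 408 TPM in SA, CANX from 29.0 to 242 and 53.2 to 163 TPM, and PDIA3 from 28.0 to 210.3 and 40.1 to 181 TPM, each highest in CON library 2. Over the 9 genes the changes ran from -0.62 for ATF4 to 0.83 for PDIA4 and the adjusted p from 0.544 to 0.996.

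**Figure D5:**
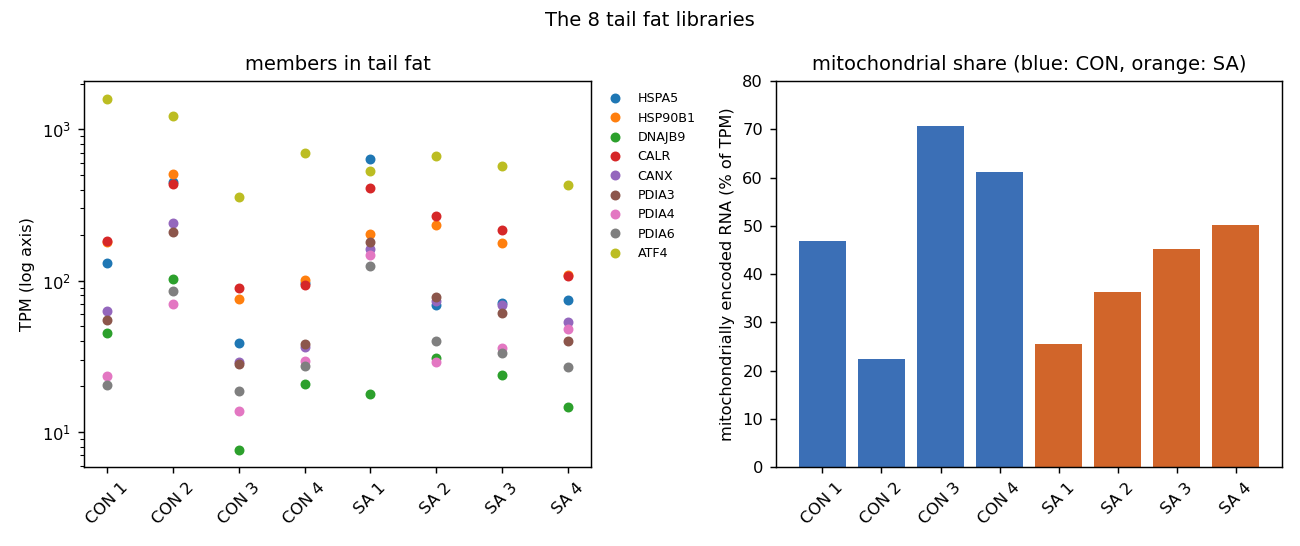
Left, TPM on a log axis of the 9 genes in each of the 8 tail fat libraries; right, the share of TPM from mitochondrially encoded genes in the same libraries. CON 2 and SA 1, which have high levels of most chaperone genes, have the lowest mitochondrial shares, 22.5% and 25.6%, and CON 3, lowest for all 9 genes, has the highest, 70.6%.

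These libraries also differed in other measures. Mitochondrially encoded RNA took 22.5% of CON library 2 and 25.6% of SA library 1, and 36.4% to 70.6% of the other 6. The selenium transport gene SELENOP was at 972 and 598 TPM in those 2 libraries and at 46 to 197 TPM in the others, and CCDC152 at 0.12 and 0.07 TPM against 57.8 to 186 TPM. The fibroblast marker sum was 1836 and 1997 TPM there and 405 to 938 TPM in the others, the skeletal muscle sum 125.4 and 63.2 TPM there and 2.41 to 15.2 TPM in the others, while the hepatocyte sum was 30.7 and 35.5 TPM there, 774 TPM in CON library 4 and 11.8 to 28.1 TPM in the others. The part of these measures in the levels of the 9 genes was not tested. With both libraries left out, a setting chosen after the data were seen, no gene of the 9 passed and HSPA5 changed by -0.14 (adjusted p = 0.916).

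ATF4 in tail fat was at 1595, 1217, 357 and 693 TPM in CON and, as 4 closer values, 532, 666, 571 and 427 TPM in SA libraries. The CON range enclosed the SA range, and the log2 change was -0.62 (SE 0.46, adjusted p = 0.561). With array weights, which count erratic libraries less, ATF4 passed at -0.87 (adjusted p = 0.0236), a setting that called 25.4% of all genes in tail fat. Of the ATF4 targets with the smallest p there, DDIT4, an inhibitor of growth signalling, was at 159 ± 65 TPM in CON and 63.7 ± 29.2 TPM in SA tail fat (adjusted p = 0.249), and ATF5 at 204 ± 151 and 57 ± 17.3 TPM (adjusted p = 0.318). Both passed with mitochondrial and ribosomal RNA removed (adjusted p = 0.0162 for DDIT4 and 0.0333 for ATF5), where 10.3% of all genes did.

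None of the genes of the 5 pathway lists passed by limma in tail fat or in the tissues labelled hypothalamus and pituitary. At an unadjusted p under 0.05 there were 2 of 33 folding genes, 0 of 23 degradation genes, 1 of 21 translocation genes, 1 of 11 sensors and regulators and 4 of 28 ATF4 targets in tail fat, beside 14.3% of all genes, 1 folding and 1 translocation gene under the hypothalamus label, and 0 under the pituitary label. In tail fat the closest was SDF2L1, a cofactor of HSPA5 in the ER lumen, at 14.4 to 25.8 TPM in CON and 39.1 to 52.2 TPM in SA libraries. All its SA values lay above all its CON values, as they did for 4.63% of the genes tested in tail fat. Its log2 change was 1.35 (SE 0.42, adjusted p = 0.154). It passed with quantile normalization, the removal of mitochondrial and ribosomal RNA, array weights, the joint fit and without the 2 high libraries, with adjusted p from 0.000135 to 0.0496. Those settings called 3.76%, 10.3%, 25.4%, 11.8% and 3.36% of all genes, in that order. In tail fat the 33 folding genes tested had a median change of 0.21 and the 23 degradation genes 0.43, the translocation genes 0.29, the sensors and regulators -0.30 and the ATF4 targets -0.019, beside -0.065 for all genes.

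The response to diet differed between tissues for 7 of the 9 genes, in a limma F-test of the interaction of diet and tissue over all 32 libraries, which called 27% of 16360 genes. The adjusted p ranged from 0.000179 for PDIA6 to 0.00537 for CANX. It was 0.193 for DNAJB9 and 0.444 for ATF4, which did not pass. The log2 change with diet in tissue labelled hypothalamus minus that in liver was 3.67 for HSPA5 (SE 0.8, adjusted p = 0.00264) and -0.24 for ATF4 (SE 0.45, adjusted p = 0.743). With mitochondrial and ribosomal RNA removed, ATF4 also differed between tissues (adjusted p = 2.78e-05). In SA sheep, 6 of 9 genes were lower in liver than in tissue labelled hypothalamus or pituitary and only ATF4 was higher, where 67.7% and 68.4% of all genes were lower in liver. Against tail fat, 4 of 9 genes were lower in SA liver, HSPA5, HSP90B1, CALR and CANX (background 33%), and DNAJB9 was higher, whereas in CON sheep 8 were higher in liver.

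Over the 32 libraries the 28 pairs of the 8 folding genes had Pearson correlations from 0.513 to 0.972 on the log2 scale, with a median of 0.836, while the 8 pairs with ATF4 ranged from -0.457 to 0.018. After each group's mean was subtracted, the medians were 0.82 and 0.622, for pairs without and with ATF4. Within 1 tissue some pairs went apart: over the 8 libraries labelled hypothalamus the pairs without ATF4 ran from -0.225 (HSP90B1 with PDIA6) to 0.961, and over the 8 livers from 0.068 (HSPA5 with CANX) to 0.963. All these points share the make-up of their library, including its mitochondrial share. The genes most like HSPA5 over the 32 libraries were HSPA9, its mitochondrial relative (r = 0.936), PSMD11, SAR1A, EIF4G1 and ELOA, the last at 0.927. With group means subtracted they were PISD (r = 0.94), TOMM34, SRSF3, POLR2D and ALYREF. The genes most like ATF4 were PXDC1 (r = 0.934), EIF4EBP1, a translation inhibitor, YBX3, TNS2 and SNAI2.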

How the data were processed

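The deposited table gives TPM for 32 libraries, a unit inferred from the values, since each column sums to 936939 to 987320 and TPM is scaled to 1000000. RNA was isolated with TRIzol per the labels' protocols, captured on oligo(dT) beads and made into stranded Illumina libraries. Per the submitters' processing notes the authors used fastp, HISAT2 and RSEM; of versions, genome build, annotation and strand setting, each is not given in the sources used here. Depth is unknown. The 8 group-mean columns were not used, and 13350 of 30722 rows carried no gene name.

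Genes with at least 1 TPM in at least 4 libraries were kept. Log2(TPM + 1) values were tested with limma 3.58.1 in R 4.3.3 (trended, robust empirical Bayes, two-sided, Benjamini-Hochberg over all genes tested, threshold 0.05). Fold changes on this scale understate low genes. Diet was tested within each tissue, tissues over the CON libraries, and the interaction over all 32. Ratios were compared by exact permutation over libraries. Only the diet fit within a tissue was tried on simulated data. That simulation had independent noise for each gene and no shift shared by a whole library, unlike these data. The tests between tissues, of the interaction and of ratios were not simulated. Each diet test within a tissue rests on the spread between the sampled sheep. The tests between tissues and of the interaction treated all libraries as independent. Several tissues came from the same 4 sheep per diet, but the labels do not tie them, so no term for the sheep was fitted.

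The 9 genes, 5 pathway lists and marker lists were chosen with earlier results of these data known. Besides the 9 genes, up to 5 genes of smallest p in liver and up to 2 in other tissues were named from each list, and the 5 genes most correlated with HSPA5 and ATF4; 1 gene so chosen is not reported here. Alternatives were a pseudocount of 0.1, no filter, quantile normalization, removal of mitochondrial and ribosomal RNA, array weights, other variance settings, a joint fit, a replicate block and leaving out each library. Leaving out tail fat CON 2 and SA 1 together was added after seeing the data. Sequences were not analysed here.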

Additional observations from a re-analysis of the deposited data

Results flagged for a closer look

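Among 72 groups of 4 libraries checked, 9 had a library far from the other 3, where chance flags about 1 in 20 independent groups. These groups were not independent, since the genes share the same libraries and vary together, so the rate is not a test. In tail fat, SA library 1 stood high for HSPA5 (633.2 TPM), PDIA4 (148 TPM) and PDIA6 (125 TPM), and CON library 2 stood high for CANX (242 TPM), PDIA3 (210.3 TPM) and PDIA6 (85.8 TPM). In liver, SA library 3 stood high for HSP90B1 at 96.4 TPM and SA library 2 low for PDIA4 at 14.3 TPM. In tissue labelled pituitary, CON library 2 stood high for PDIA6 at 105.3 TPM.

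The change with diet differed between the 4 tissues for 7 genes by limma's F-test of the interaction. The adjusted p was 0.0021 for HSPA5, 0.000516 for HSP90B1, 0.000685 for CALR, 0.00537 for CANX, 0.000347 for PDIA3, 0.00352 for PDIA4 and 0.000179 for PDIA6.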

How the results depend on the processing

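In liver, 8 of the 9 genes were lower with diet under every alternative that kept the scaling (pseudocount, filter, array weights, other variance settings, joint fit, each library left out), and no gene changed sign in 144 values. Quantile normalization and the removal of mitochondrial and ribosomal RNA each gave 1 higher gene, ATF4, and 7 lower. Array weights called 1 gene lower in tail fat, ATF4, and 1 folding gene in tissue labelled pituitary, FKBP11. The TPM carry no depth, so counting error is unknown, and 4 libraries a group limit the precision. The cause of these shifts was not tested. The fit of the array weights stopped before its convergence tolerance was reached in some fits.

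With quantile normalization the liver lists gave 2 higher and 17 lower folding genes, 2 higher and 13 lower degradation genes, 4 higher and 13 lower translocation genes, 7 lower sensors and regulators, and 6 higher and 8 lower ATF4 targets. With mitochondrial and ribosomal RNA removed they gave 2 higher and 16 lower, 2 higher and 12 lower, 4 higher and 12 lower, 6 lower, and 5 higher and 5 lower. ATF4 targets higher in liver numbered 2 with a pseudocount of 0.1 and 2 with array weights. Without 1 library each, they ranged from 0 (CON 1) to 2 (SA 2), and higher degradation genes from 0 to 1.

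In tail fat, folding genes called numbered 1 with quantile normalization, 1 with the RNA removed, 5 with array weights, 1 with both CON 2 and SA 1 left out and 2 in the joint fit of 32 libraries. Degradation genes numbered 3 with array weights. Translocation genes numbered 3 with the RNA removed, 8 with array weights and 2 in the joint fit, and sensors and regulators 1 in each of these. ATF4 targets numbered 3 with quantile normalization, 3 with the RNA removed, 9 with array weights and 5 in the joint fit. Over all genes, tail fat gave 78 calls of 11185, none without the filter on low values, 421 with quantile normalization, 1298 of 12633 with the RNA removed, 2839 with array weights, 346 of 10297 without both libraries and 1938 of 16360 in the joint fit.

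Between tissues, liver against hypothalamus label gave 3 genes with the RNA removed and 3 (without liver library 4) to 7 without 1 library each. Liver against pituitary label gave 5 with quantile normalization, 4 higher and 1 lower in liver. It gave 3 higher and 1 lower with the RNA removed, and 7 in SA libraries, 1 higher and 6 lower. Without 1 library each it gave 3 to 7 (without tail fat library 2). Liver against tail fat gave 5 in SA libraries, 1 higher and 4 lower in liver, where CON libraries gave 8 higher and 1 lower. Pituitary label against tail fat gave 4 to 9 (without tail fat library 2).

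Changes that missed the threshold also changed sign. In tissue labelled hypothalamus, quantile normalization gave 0.022 for HSP90B1 and 0.013 for ATF4, and removal of the RNA gave 0.014 for HSP90B1, 0.007 for PDIA4 and 0.027 for ATF4. In tissue labelled pituitary, array weights gave 0.39 for HSPA5, 0.295 for HSP90B1, 0.134 for CALR, 0.178 for CANX, 0.267 for PDIA3, 0.274 for PDIA4, 0.222 for PDIA6, 0.109 for DNAJB9 and 0.066 for ATF4. Quantile normalization gave 0.059 for HSP90B1, 0.136 for PDIA3, 0.005 for PDIA4, 0.038 for PDIA6, 0.102 for DNAJB9 and 0.123 for ATF4. Removal of the RNA gave 0.074 for PDIA3, 0.031 for DNAJB9 and 0.074 for ATF4. In tail fat, quantile normalization gave -0.488 for HSPA5, -0.481 for HSP90B1, -0.058 for CALR, -0.053 for CANX and -0.023 for PDIA3. Removal of the RNA gave -0.307 for HSPA5 and -0.23 for HSP90B1, array weights -0.634 for HSPA5, and leaving out both libraries -0.144 for HSPA5 and 0.175 for DNAJB9.

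Leaving out 1 library each, the changes in tissue labelled hypothalamus ranged from -0.07 to 0.034 for HSP90B1, -0.064 to 0.085 for CALR, -0.025 to 0.075 for PDIA3, -0.2 to 0.117 for PDIA4, -0.249 to 0.004 for PDIA6 and -0.078 to 0.043 for ATF4. In tissue labelled pituitary they ranged from -0.421 to 0.05 for HSP90B1, -0.565 to 0.015 for CANX, -0.282 to 0.122 for PDIA3 and -0.274 to 0.083 for ATF4. In tail fat they ranged from -0.769 to 0.639 for HSPA5, -0.276 to 0.637 for HSP90B1, -0.019 to 0.986 for CANX, -0.041 to 0.968 for PDIA3 and -1.098 to 0.098 for DNAJB9.

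Same-numbered CON and SA libraries came from different sheep, so comparing them cannot show whether library numbers mark the same sheep. Their deviations correlated by 0.289 to -0.052 in tissue labelled hypothalamus and 0.048 to -0.223 in tissue labelled pituitary. In liver they correlated by 0.156 to -0.185 and in tail fat by 0.249 to -0.342. Within a diet, same-numbered libraries of different tissues correlated by -0.267 to 0.337. Both ends were between the hypothalamus and pituitary labels, in CON library 2 and SA library 3. What these correlations reflect was not tested. With the number as a replicate block, HSPA5 in liver changed by -3.60 (adjusted p = 0.00137), the same 8 genes were lower, and calls over all genes went from 7445 to 7072 in liver and from 78 to 413 in tail fat.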

Other observations

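The make-up of the 9 genes' summed TPM also differed between livers of the 2 diets. HSPA5 made up 11.2% to 18% of the sum in CON livers and 3.02% to 5.9% in SA livers. ATF4 made up 7.86% to 12.3% in CON and 40.9% to 50.2% in SA livers, so in SA livers it was the largest part of the sum in each library. CALR went from a mean of 22.4% to 14.6% and PDIA3 from 14.2% to 7.01%, while DNAJB9 stood at 5.5% and 6.76%. In tail fat ATF4 made up 36.6% to 69.5% in CON and 22% to 47.4% in SA libraries, with overlapping ranges. These shares were described and not tested.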
